A study of Homo sapiens with 52 samples.

Results

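The genes described are 41 genes of the actin cytoskeleton and its contractile apparatus, followed in human WI-38 fibroblasts on their way into senescence. They were chosen by symbol, with earlier results of these data known. Their counts beside those of all genes are therefore a description. They comprise 5 actins, 4 tropomyosins, 8 other filament-binding proteins, 7 genes of the myosin motor, 11 cross-linkers and adhesion proteins, 3 proteins of filament turnover and 3 transcription regulators. Of the 41, 38 had a mean of at least 10 normalised reads over the groups and were tested among 14876 genes, of 46275 genes with any read. The 3 that were not tested were ACTC1, the cardiac muscle actin, ACTN4, an alpha-actinin, and MYH11, the smooth muscle myosin heavy chain. Their means were 9.63, 3.03 and 0.246 normalised reads. Why these means were low was not tested, so they do not show that a gene was silent.

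WI-38 cells are normal human fibroblasts of embryonic lung. Bulk mRNA was sequenced from untreated young cells, from cells in replicative senescence (RS) after serial passage, and from young cells exposed for 24 h to 0.009% SDS, a detergent that damages the plasma membrane, to 75 mM KCl, which depolarises the membrane and lets Ca2+ in, or to 250 nM doxorubicin (DXR), which breaks DNA. After the wash the cells were kept for 0, 1, 2, 3, 4, 6, 8 or 16 days, day 0 being the end of the exposure. The study calls the resulting states PMD-Sen, Ca2+-Sen and DDR-Sen. Each of the 26 groups had 2 libraries. The same 2 untreated libraries served every comparison with untreated cells, so these comparisons are not independent of each other. The labels give the untreated pair no day, and no untreated group was sequenced for each day. Differences from untreated cells on a given day therefore cannot be told apart from time in culture after the wash. The study's methods describe the 2 of a group as independent samples, and the labels do not say whether they came from separate cultures, so the p-values measure the spread between these libraries.

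Actin filaments assemble from monomers and are bundled, capped, anchored at adhesions and pulled by non-muscle myosin II, so that a fibroblast can spread, adhere and contract. Many of the genes share a transcriptional circuit. Monomeric actin holds the coactivators MRTFA and MRTFB in the cytoplasm, and when monomer is consumed into filaments they enter the nucleus and act with serum response factor (SRF), which binds the CArG box, CC, then 6 bases of A or T, then GG. Smooth muscle actin (ACTA2), calponin 1 (CNN1) and transgelin (TAGLN) are the usual markers of the contractile state of fibroblasts known as the myofibroblast.

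The CArG box, a palindromic pattern that reads alike on both strands, was searched in RefSeq promoters (GRCh38.p14), each from 250 bases before to 50 after a gene's start. Of the 37 genes with an entry in that table, 12 (32.4%) had a box in at least 1 promoter, against 1.6% of 27305 genes. Those 12 were ACTG2, FHL2, MYLK, SRF, ACTN1, ACTC1, TGFB1I1, ACTG1, CNN2, TPM4, SMTN and FLNA. The 250 bases before the start are shown for the 2 promoters with a pair of boxes (ACTG2 and SRF) and for the 3 genes with a single box whose values were lowest on SDS day 0 (CNN2, MYLK and ACTG1). They are written 5′ to 3′ on the strand of the gene, with the boxes in capitals. A match describes the letters and shows no binding.
ACTG2 (chr2:73892758-73893007, plus strand): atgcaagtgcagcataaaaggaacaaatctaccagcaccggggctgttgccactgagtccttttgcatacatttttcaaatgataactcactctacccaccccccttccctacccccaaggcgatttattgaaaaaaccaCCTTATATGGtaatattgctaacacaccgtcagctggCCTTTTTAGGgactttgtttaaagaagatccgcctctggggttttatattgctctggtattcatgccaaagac
SRF (chr6:43171019-43171268, plus strand): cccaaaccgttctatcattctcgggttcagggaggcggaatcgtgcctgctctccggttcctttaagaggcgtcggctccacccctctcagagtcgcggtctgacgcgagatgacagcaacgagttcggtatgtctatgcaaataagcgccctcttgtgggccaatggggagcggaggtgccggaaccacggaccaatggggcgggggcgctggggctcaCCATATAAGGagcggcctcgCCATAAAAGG
CNN2 (chr19:1026358-1026607, plus strand): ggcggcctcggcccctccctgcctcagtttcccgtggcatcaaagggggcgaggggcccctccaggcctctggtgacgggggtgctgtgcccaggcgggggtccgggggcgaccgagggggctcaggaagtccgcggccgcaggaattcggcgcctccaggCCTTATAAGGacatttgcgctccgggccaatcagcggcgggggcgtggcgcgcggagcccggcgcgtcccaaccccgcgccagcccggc
MYLK (chr3:123620549-123620798, minus strand): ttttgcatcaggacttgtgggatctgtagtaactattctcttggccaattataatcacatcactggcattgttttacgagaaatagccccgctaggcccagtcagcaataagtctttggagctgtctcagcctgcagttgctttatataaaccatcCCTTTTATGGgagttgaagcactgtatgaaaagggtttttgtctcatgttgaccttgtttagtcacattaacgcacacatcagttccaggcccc
ACTG1 (chr17:81512800-81513049, minus strand): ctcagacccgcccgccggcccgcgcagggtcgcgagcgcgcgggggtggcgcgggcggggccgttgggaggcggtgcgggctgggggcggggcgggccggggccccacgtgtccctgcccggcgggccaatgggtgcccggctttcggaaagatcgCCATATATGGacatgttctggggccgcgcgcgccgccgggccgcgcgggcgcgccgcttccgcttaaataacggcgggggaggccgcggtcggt

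The pair of boxes in ACTG2 began at -110 and -73 and the pair in SRF at -30 and -10 bases from the start. The single boxes of MYLK and ACTG1 both began at -94, and that of CNN2 at -89. On SDS day 0 the 11 tested genes with a box had a median log2 difference from untreated cells of -0.95. The other 27 tested genes, some of which had no entry among the promoters searched, had -0.82, so both sets lay below untreated cells. The medians, with a box first, were -0.36 and -0.20 on SDS day 1, 0.22 and 0.30 on day 2 and -0.49 and -0.29 on day 16. They were -0.49 and -0.48 on KCl day 0, -0.47 and -0.27 on DXR day 0 and -0.64 and -0.19 in RS. Boxes outside the searched bases or with a mismatch were not looked for, so the 27 cannot be read as genes that SRF does not control. The part of the box in these values was not tested.

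The deposited tables hold a mean and a fitted log2 fold change for each comparison, from which the whole reads of both libraries were recovered for 14868 of the 14876 tested genes. The recovered reads leave out most genes that were not tested. They numbered 15241220 to 55415903 per library, and 18949662 and 15241220 in the untreated pair. Which of a pair was replicate 1 could not be told, so they are called the larger and the smaller library and their values are given in that order, in normalised reads on the scale of the untreated pair. These values are relative to the other genes of a library. In bulk RNA, fewer cells of a kind and less RNA per cell cannot be told apart. All 11 fibroblast marker genes looked up (COL1A1, COL1A2, FN1, VIM and others) were read in every library. Of 14 markers of epithelial, endothelial, blood, muscle and nerve cells, 4 (PECAM1, VWF, DES and TTN) passed the minimum. Reads were recovered for 8 of the 14, and these 8 summed to 84.1 to 286 normalised reads per library. The highest values were those of KCl day 0, where PECAM1 and DES were higher than in untreated cells. Their part in the KCl day 0 values was not tested.

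SDS was followed by a broad fall of these genes at the end of the exposure and by levels at or above the untreated ones 2 days later. On SDS day 0, 35 of the 38 genes were lower than in untreated cells and 0 were higher (Wald test, adjusted p under 0.05), while 20.2% of all tested genes were lower and 19.8% higher. The median log2 difference of the 38 was -0.88, against -0.00465 over all tested genes. On day 1, 20 were still lower and 3 higher, with 10% and 9.65% of all genes. On day 2 the direction had turned, with 22 higher and 2 lower, against 8.81% and 7% of all genes, and a median of 0.26. On day 3, 9 were higher and 1 lower, with 5.43% and 6.07% of all genes. By day 16, 17 were lower and 1 higher, with 11.6% and 9.64% of all genes.

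On the days not yet given, lower genes outnumbered higher ones after SDS. On SDS day 4 there were 7 lower and 4 higher (8.39% and 7.33% of all genes), on SDS day 6 9 lower and 1 higher (6.98% and 5.79% of all genes) and on SDS day 8 7 lower and 1 higher (6.05% and 5.75% of all genes). After KCl the lower genes were most numerous on days 0 and 8, with 8 lower and 4 higher (7.15% and 5.37% of all genes) on day 1, 3 lower and 8 higher (5.72% and 4.77% of all genes) on day 3, 7 lower and 7 higher (7.04% and 4.99% of all genes) on day 4, 9 lower and 1 higher (5.53% and 4.72% of all genes) on day 6 and 23 lower and 4 higher (17.8% and 15.5% of all genes) on day 8. For KCl day 8, limma voom on the recovered reads gave 17 lower genes with all libraries and 11 to 13 when any 1 of the KCl day 8 or untreated libraries was left out. After DXR lower genes outnumbered higher ones on all 8 days, with 10 lower and 0 higher (6.88% and 4.72% of all genes) on day 3, 14 lower and 0 higher (10.5% and 7.93% of all genes) on day 4, 24 lower and 0 higher (13.8% and 10.7% of all genes) on day 6 and 16 lower and 2 higher (11.8% and 10.3% of all genes) on day 8.

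The fall on day 0 and the rise above untreated cells on day 2 were not equally firm. With limma voom on the recovered reads, 35 genes were lower on day 0, and leaving out any 1 library left 33 to 35. TPM1 and MYL12A lost their calls without the larger SDS day 0 library and without the smaller untreated library. For day 2 the same test gave 13 higher genes. Without the larger SDS day 2 library there were 4, without the smaller 3, without the larger untreated library 1 and without the smaller untreated library 6. Of the 22 genes higher on day 2, SMTN alone passed in each of these fits. For SDS day 1, limma voom gave 17 lower genes with all libraries and 13 without the smaller untreated library. The fits without a library are all by limma voom, and a call said to be lost without a library was one that limma voom made with all of them. Each such fit leaves 1 library in a group and pools the spread over all groups. How far a lost call reflects lower power or that library was not tested.

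**Figure D1:**
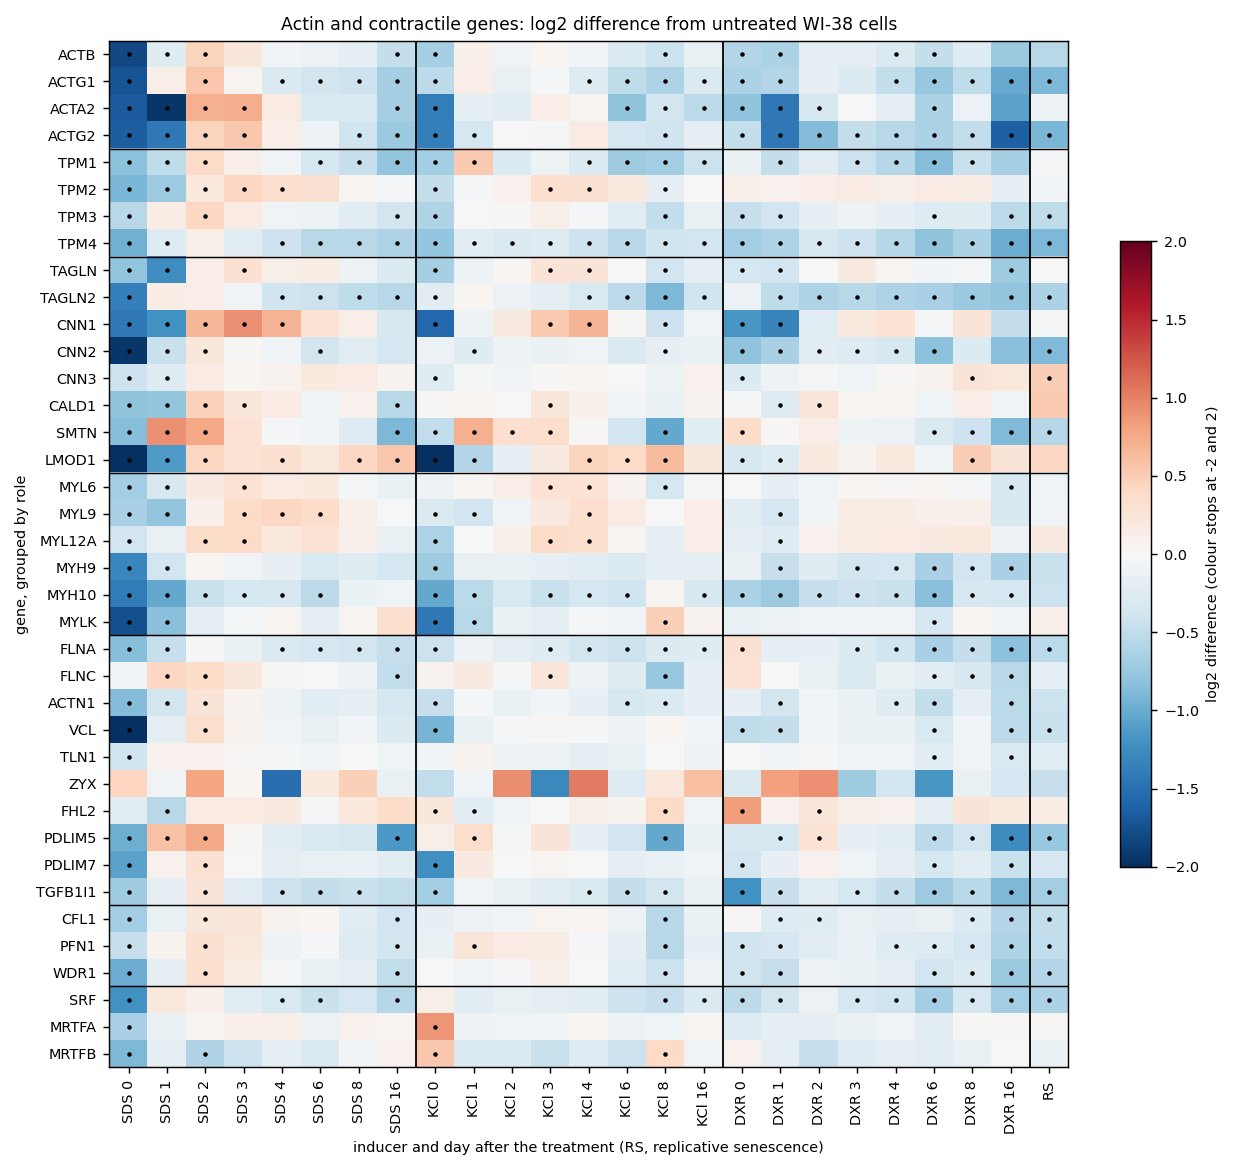
Log2 difference from untreated cells for each tested gene (rows, by role) in each group (columns, numbered by day, for SDS, KCl and DXR, and RS), with dots where the adjusted p was under 0.05 and colours that stop at 2 in either direction. The SDS day 0 column is blue in nearly every row, with LMOD1 at -3.97, and the SDS day 2 column is mostly pale red.

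**Figure D2:**
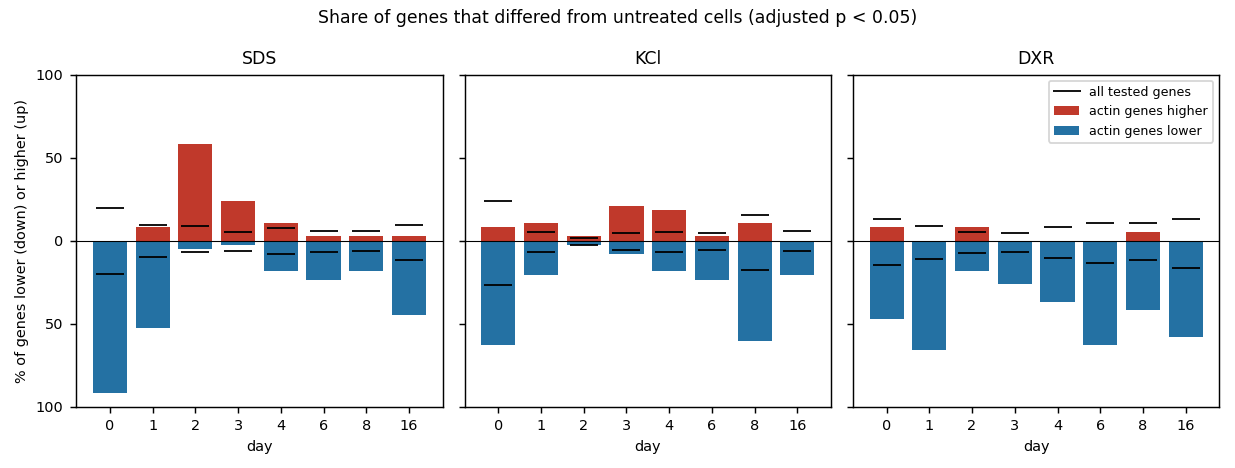
Percent of the 38 tested genes called higher (above the axis) or lower (below) than untreated cells on each day after SDS, KCl or DXR, with black dashes for the percent of all 14876 tested genes. SDS day 0 has the tallest lower bar, 35 of 38 genes, and SDS day 2 the tallest higher bar, 22 of 38.

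A test of the change between 2 days after SDS does not rest on the untreated level. The error of the untreated libraries still enters it from both days and widens its SE. From day 0 to day 2, 36 of 38 genes rose and 0 fell, all but MRTFB and ZYX, where 17.1% of all genes rose and 13.3% fell. Leaving out 1 library left 35 or 36. From day 0 to day 1, 25 rose and 2 fell, with 15.6% and 13.5% of all genes. From day 0 to day 16, 24 rose and 0 fell, with 13.7% and 14.6% of all genes. The lowest of the 8 days after SDS was day 0 for 30 of the 38 genes, and the highest was day 2 for 17 and day 3 for 8. After KCl, 22 genes rose and 4 fell from day 0 to day 1, with 20.1% and 16.5% of all genes. After DXR, 1 rose and 4 fell, with 1.28% and 2.27%.

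All 4 tested actins were lower on SDS day 0. ACTB, the cytoplasmic beta-actin that the study used as its qPCR reference gene, had 133308 and 140702 normalised reads in the untreated libraries and 34239.8 and 44533 on SDS day 0. Both treated libraries lay far below the untreated pair, a log2 difference of -1.80 ± 0.12, adjusted p = 1.1e-51 (SE, Wald test with Benjamini-Hochberg adjustment). On day 2 ACTB reached 183396 and 188869, both above the untreated pair (0.44 ± 0.07), a call lost when any 1 of the 4 libraries was left out. On KCl day 0 it had 87388 and 85150.0 (-0.67 ± 0.07), and on DXR day 0 91671 and 90185 (-0.59 ± 0.09, adjusted p = 2.3e-09). ACTG1, the gamma-actin made beside it, had 97084 and 108856 untreated and 27065 and 34867 on SDS day 0 (-1.73 ± 0.12). ACTB and ACTG1 have processed pseudogenes and ACTA2 and ACTG2 are close paralogs, so the assignment of reads among them is uncertain.

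ACTA2 and ACTG2, the smooth muscle actins, stayed low through day 1. ACTA2 had 5083 and 5542 reads untreated, 1356 and 2013 on SDS day 0 and 1438 and 1312 on day 1. The log2 differences were -1.66 ± 0.29 and -1.95 ± 0.10, the latter the lowest of the 38 genes that day. On day 2 ACTA2 had 8196 and 9246, both above the untreated pair (0.72 ± 0.09, not called by limma voom). ACTG2 had 11820.1 and 10622 untreated, 3174 and 4002 on day 0, 4080.4 and 4238 on day 1 and 14236 and 16284 on day 2. Its log2 differences were -1.65 ± 0.12, -1.43 ± 0.09 and 0.44 ± 0.09, the last not called by limma voom. On KCl day 0 ACTA2 was lower too, with 2001 and 2079 (-1.38 ± 0.09), and on DXR day 0 it had 2954 and 3097 (-0.81 ± 0.10), a call that was lost when any 1 of the 4 libraries was left out.

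**Figure D3:**
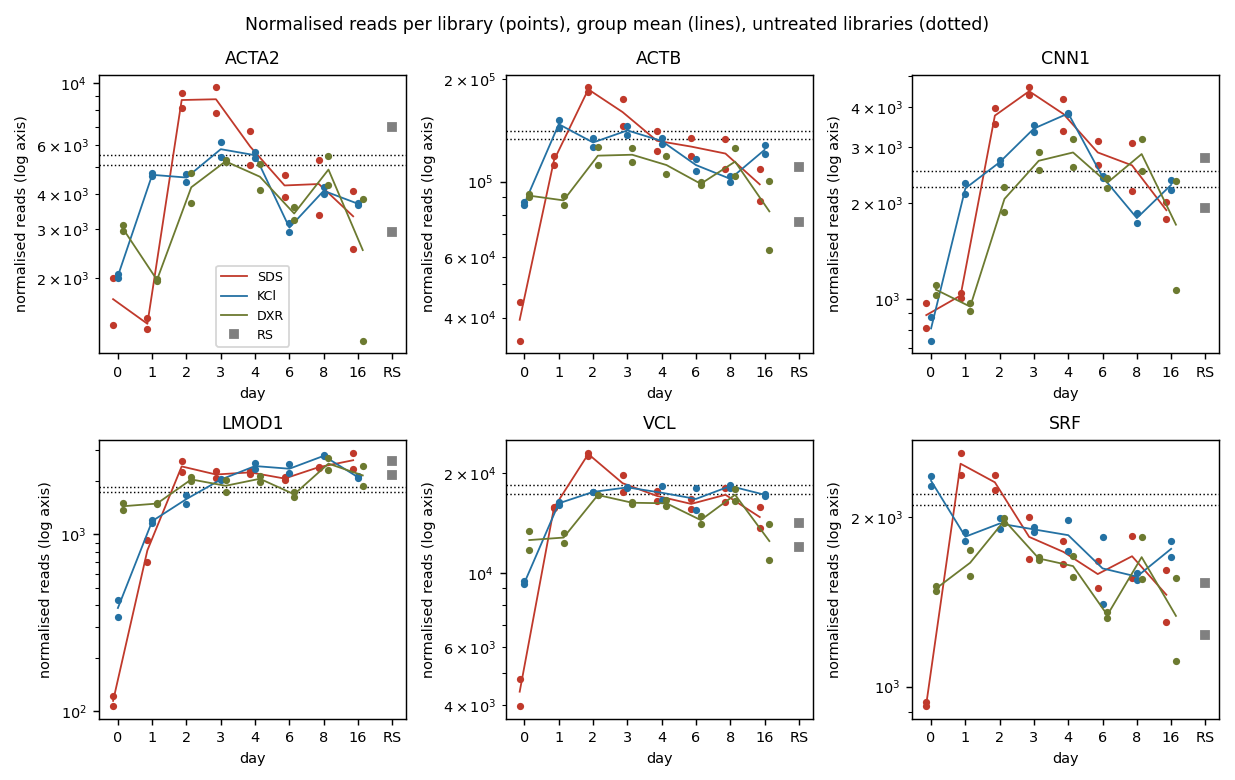
Normalised reads (log axis) of ACTA2, ACTB, CNN1, LMOD1, VCL and SRF in both libraries (points) and their mean (lines) on days 0 to 16 after SDS (red), KCl (blue) and DXR (green), days being drawn in equal steps, with RS as grey squares and the untreated libraries as dotted lines. The SDS day 0 points of LMOD1, at 108 and 122, lie far below the dotted lines, and ACTA2 is still low on SDS day 1.

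Proteins that coat the filament fell with the actins. All 4 tropomyosins and all 8 filament-binding genes were lower on SDS day 0, with log2 differences of -0.95 to -0.56 and of -3.97 to -0.42. On day 2, 3 and 5 of them were higher. LMOD1, leiomodin 1, which nucleates filaments in smooth muscle, had 1850.3 and 1738 reads untreated and 108 and 122 on SDS day 0. That was the largest change of the 38 genes, -3.97 ± 0.15, adjusted p = 1.7e-148 (Wald test). It had recovered to 932 and 696 on day 1 and 2254 and 2596 on day 2, and on day 16, with 2350.1 and 2906, it was the only one of the 38 called higher than in untreated cells (0.55 ± 0.16). LMOD1 was also the lowest on KCl day 0, with 342 and 427 (-2.23 ± 0.13). CNN2, a calponin of non-muscle cells, had 10554 and 10677 untreated and 2375 and 3158 on SDS day 0 (-1.94 ± 0.12). CNN1, the smooth muscle calponin, had 2517 and 2241 untreated and 809 and 967 (-1.42 ± 0.13). After SDS its highest values came on day 3, 4351 and 4616 (0.91 ± 0.10). CNN1 also fell on KCl day 0 (-1.56 ± 0.12) and on DXR day 0 (-1.16 ± 0.12). TAGLN, the transgelin of contractile cells, had 21264 and 21410.3 untreated, 11094 and 13678 on SDS day 0 and 9261 and 8715 on day 1 (-0.78 ± 0.11 and -1.25 ± 0.08), so it was lowest on day 1.

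SMTN, smoothelin, which binds filaments in contractile smooth muscle, was called higher than in untreated cells on SDS days 1 and 2 and on no later day. It had 3248 and 3278 reads untreated, 1556 and 2075 on SDS day 0, 5585 and 6705 on day 1 and 5633 and 5573 on day 2. It was lower on day 0 (-0.85 ± 0.13) and higher on day 1 (0.91 ± 0.10) and day 2 (0.78 ± 0.08). By day 16 it was lower again, with 1868 and 1635 (-0.90 ± 0.14). TPM1, a tropomyosin of muscle and stress fibres, had 12467 and 15279 untreated and 6777 and 9262 on SDS day 16 (-0.79 ± 0.18), a call lost without the larger SDS day 16 library and without the smaller untreated library.

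All 6 tested genes of the myosin motor were lower on SDS day 0, by log2 differences of -1.76 to -0.39, the light chains MYL6, MYL9 and MYL12A being among them, and 1 was higher and 1 lower on day 2. MYLK, the kinase that switches smooth muscle and non-muscle myosin II on, had 27247 and 25220.0 reads untreated and 7890.5 and 7649 on SDS day 0 (-1.76 ± 0.09). KCl day 0 was also low, with 9384 and 10027 (-1.43 ± 0.08). MYH9, the heavy chain of non-muscle myosin IIA, was at -1.30 ± 0.12 on SDS day 0. MYH10, that of myosin IIB, was at -1.40 ± 0.13 on day 0 and still lower on day 2 (-0.45 ± 0.10), the latter a call lost without the larger SDS day 2 or the larger untreated library.

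Of the 10 tested cross-linkers and adhesion genes, 7 were lower on SDS day 0 and 6 were higher on day 2. VCL, vinculin, which ties adhesions to filaments, had 18391 and 17294 reads untreated and 3983 and 4806 on SDS day 0 (-2.02 ± 0.11). On day 2 it had 22571 and 23059 (0.35 ± 0.07), again a call lost without any 1 of the 4 libraries. PDLIM5, a PDZ and LIM protein that docks on alpha-actinin, had 2349.5 and 2451 untreated, 4158 and 3945 on SDS day 2 (0.76 ± 0.09, a call lost without the larger untreated library) and 1116 and 1043 on SDS day 16. Its -1.15 ± 0.14 was the lowest of the 38 genes on that day. FLNA, the main filamin, was at -0.85 ± 0.10 on SDS day 0 and at 0.30 ± 0.10 on DXR day 0, a call lost without the smaller DXR day 0 or the smaller untreated library. TGFB1I1, an adhesion protein also called Hic-5, was the lowest of the 38 on DXR day 0, at -1.20 ± 0.12.

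The 3 genes not called on SDS day 0 were all of this group. FLNC, the muscle filamin, was at -0.05 ± 0.10, and FHL2, a LIM protein that binds adhesions and transcription factors, at -0.21 ± 0.10. FHL2 was the highest of the 38 on DXR day 0, at 0.84 ± 0.10. ZYX, zyxin of focal adhesions, could not be judged, since its untreated libraries had 1569 and 347 reads. Its SE reached 1.65, and it was called in 0 of the 25 comparisons with untreated cells. The filament turnover genes CFL1 (cofilin), PFN1 (profilin) and WDR1, which helps cofilin take filaments apart, were all lower on SDS day 0 and all higher on day 2 (0.23 to 0.33), although limma voom did not call CFL1, and the calls of PFN1 and WDR1 were lost without either SDS day 2 library. On day 0 WDR1 was at -0.999 ± 0.10.

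The transcription regulators differed between the inducers. SRF had 2104 and 2196 reads untreated and 937 and 924 on SDS day 0, both below the untreated pair (-1.21 ± 0.11). On SDS day 1 it had 2371 and 2604, both above the untreated pair, though not called (0.21 ± 0.10), and by day 16 it was lower again, with 1303 and 1608 (-0.56 ± 0.16). In RS it had 1234 and 1528 (-0.64 ± 0.18). On KCl day 0 it had 2365 and 2274 (0.11 ± 0.09) and on DXR day 0 1477 and 1507 (-0.53 ± 0.11, adjusted p = 9.5e-06, Wald test). MRTFA had 1177 and 1151 untreated, 659 and 829 on SDS day 0 and 2215 and 2073 on KCl day 0, so that it was lower after SDS (-0.65 ± 0.14) and higher after KCl (0.88 ± 0.10). MRTFB had 403 and 336 untreated, 209 and 188 on SDS day 0 and 547 and 528 on KCl day 0, again lower after SDS (-0.90 ± 0.21) and higher after KCl (0.54 ± 0.15). MRTFB remained lower on SDS day 2 (-0.60 ± 0.17), a call lost without the larger untreated library.

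The design sets 3 ways into senescence side by side. Against untreated cells, KCl day 0 had 24 genes lower and 3 higher (MRTFA, MRTFB and FHL2, the last not called by limma voom), with 26.6% and 23.6% of all genes, and DXR day 0 had 18 lower and 3 higher, with 14.9% and 13%. The difference between inducers was tested on each day. On day 0, 23 of 38 genes were lower after SDS than after KCl and 0 higher, with 18.1% and 20.5% of all genes. Against DXR, 27 were lower after SDS and 1 higher, with 13.6% and 15% of all genes. KCl had 16 genes lower than DXR and 6 higher, with 18.8% and 18.3%. LMOD1 differed most from DXR (-3.65 ± 0.19), followed by MYLK (-1.62 ± 0.13) and VCL (-1.52 ± 0.15). CNN2 differed by -1.82 ± 0.15 from KCl, ACTG1 by -1.21 ± 0.14, MRTFA by -1.53 ± 0.17, MRTFB by -1.44 ± 0.25 and SRF by -1.32 ± 0.14.

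On day 1 the values after SDS lay below those after KCl in many of the genes. SDS had 14 genes lower than KCl and 1 higher, with 2.92% and 1.51% of all genes, ACTA2 by -1.77 ± 0.12 and TPM1 by -1.03 ± 0.13. Against DXR, 10 were higher and 8 lower after SDS, with 6.89% and 5.46%. KCl had 18 genes higher than DXR and 1 lower, with 4.67% and 3.09%. DXR day 1 itself had 25 genes below untreated cells and 0 above, with 11% and 8.52% of all genes. limma voom gave 20 lower genes with all libraries and 12 to 15 when 1 was left out, 13 and 15 without the larger and smaller DXR day 1 library and 15 and 12 without the larger and smaller untreated library.

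On day 2, SDS had 16 genes higher than KCl and 0 lower, with 1.04% and 1.35% of all genes. It had 19 higher than DXR and 0 lower, with 4.71% and 2.61%. ACTG2 was 1.32 ± 0.12 above DXR, PFN1 0.52 ± 0.11 and TPM3 0.57 ± 0.12. With limma voom, 11 genes were higher than after KCl with all libraries, 1 without the larger and 4 without the smaller SDS day 2 library, and 4 and 0 without the larger and smaller KCl day 2 library. The same test gave 18 genes higher than after DXR with all libraries, 12 without the larger SDS day 2 library and 9 without the larger DXR day 2 library. On KCl day 2, 1 gene was higher and 1 lower than in untreated cells, with 1.77% and 2.57% of all genes. On DXR day 2, 3 were higher and 7 lower, with 5.19% and 7.49%.

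**Figure D4:**
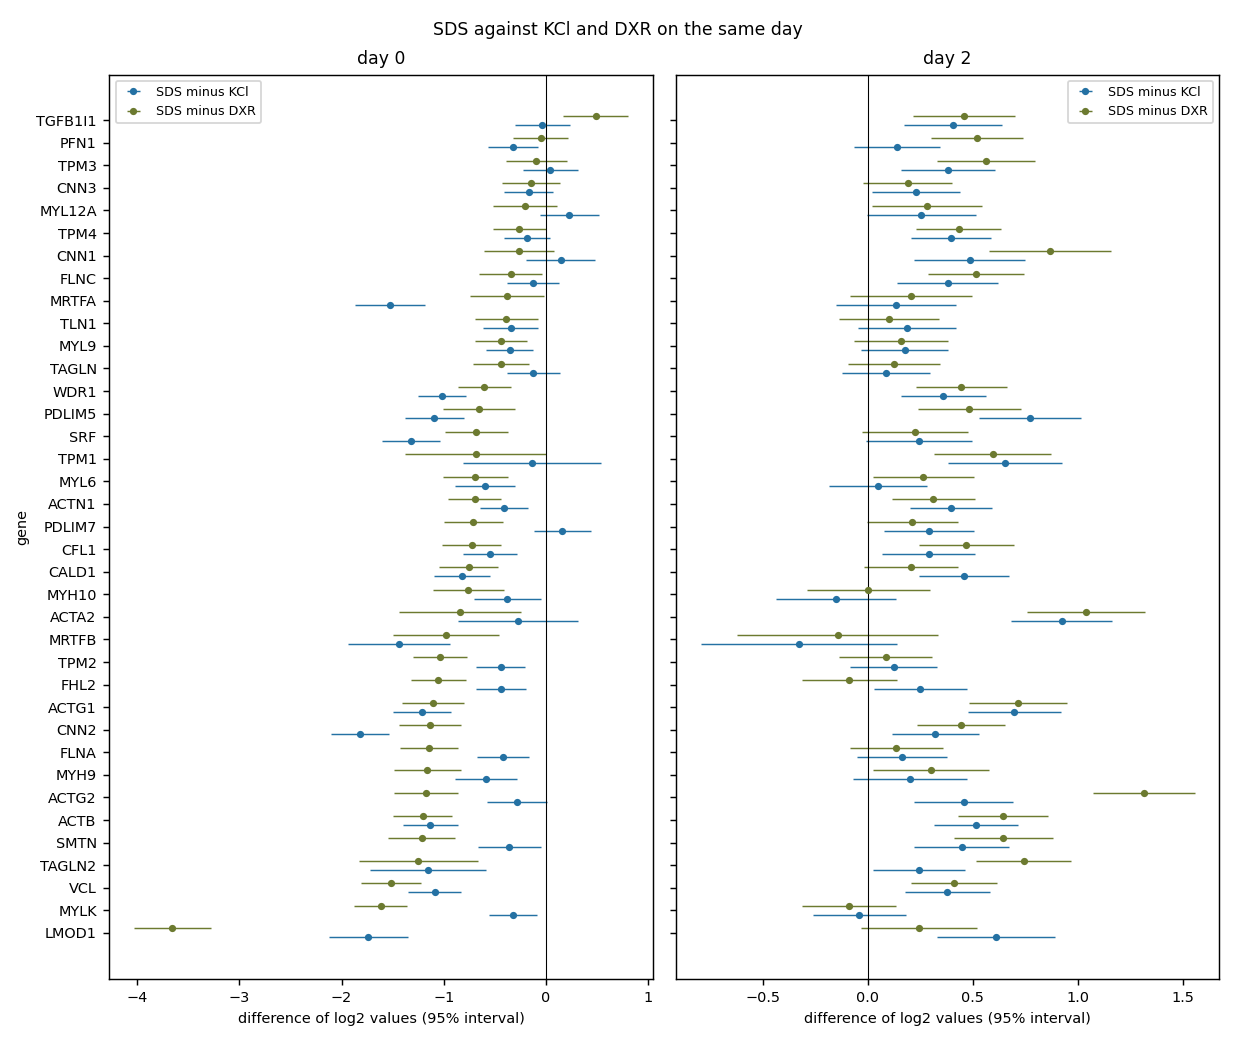
Difference of log2 values between SDS and KCl (blue) and between SDS and DXR (green) on day 0 (left) and day 2 (right) for each tested gene other than ZYX, with 95% intervals as bars. On day 0 most points lie left of 0, LMOD1 farthest at -3.65 from DXR, and on day 2 most lie right of 0, ACTG2 farthest at 1.32 from DXR.

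At day 16, the last day sampled, the genes were mostly lower than or level with untreated cells after all 3 inducers. DXR had 22 lower and 0 higher, with 16.7% and 13.2% of all genes, and KCl had 8 lower and 0 higher, with 6.09% and 5.79%. RS had 15 lower and 1 higher, with 11.6% and 11.6%, where limma voom gave 20 lower with all libraries and 23 without the smaller RS library. In RS the lowest were ACTG2 (-0.91 ± 0.25, a call lost without the larger RS library), TPM4 (-0.90 ± 0.14), ACTG1 (-0.89 ± 0.20) and CNN2 (-0.88 ± 0.23), and CNN3, a calponin of non-muscle cells, was the only one called higher (0.49 ± 0.13). The larger and smaller RS libraries had 2941 and 6979 reads of ACTA2, and those of DXR day 16 had 1197 and 3856, so ACTA2 was not measured closely in either group.

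Between day 16 groups, 4 genes were lower after SDS than after KCl and 0 higher, with 1.98% and 0.746% of all genes. They were PDLIM5 (-1.02 ± 0.16), SMTN (-0.69 ± 0.16), CALD1 (-0.62 ± 0.16), the caldesmon that restrains myosin on filaments, and ACTG2 (-0.57 ± 0.17), and limma voom gave 6 with all libraries and 7 without the smaller SDS day 16 library. KCl had 11 genes above DXR and 0 below, with 4.43% and 1.96% of all genes. SDS and DXR differed in 0 genes by the Wald test, with 2 higher and 1 lower at an unadjusted p under 0.05, and in 5 by limma voom, while 0.175% of all genes were higher and 0.0202% lower by the Wald test. The count of 5 was 14 without the larger SDS day 16 library and 18 without the smaller DXR day 16 library, so the comparison rests on single libraries. For ACTA2 the interval of the log2 difference was -1.19 to 2.00, which leaves room for changes in either direction.

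Against RS, SDS day 16 differed in 0 genes by the Wald test, with 0 higher and 2 lower at an unadjusted p under 0.05, and in 2 higher and 2 lower by limma voom, while 0.309% of all genes were higher and 0.376% lower by the Wald test. KCl day 16 had 3 genes higher than RS (TPM4, PDLIM5 and CNN2) and 0 lower, with 2.51% and 1.74% of all genes. DXR day 16 differed from RS in 0 genes, with 0 higher and 2 lower at an unadjusted p under 0.05, and in 0 higher and 5 lower by limma voom, while 0.0538% of all genes were higher and 0.0941% lower by the Wald test.

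Other filament systems were counted on the same days after SDS. Of 11 tubulins, 9 were lower on SDS day 0 (median -1.52), 6 were higher on day 2 and 5 were lower on day 16, when 20.2%, 8.81% and 11.6% of all genes were called in those directions, with TUBA1A at -2.63 ± 0.32 on day 0 and TUBA1B at -1.35 ± 0.13 on day 16. Of 9 tested genes of intermediate filaments, 5 were lower and 1 higher on SDS day 0, with 20.2% and 19.8% of all genes, LMNA, the nuclear lamin, at -1.33 ± 0.09. Of the 10 tested immediate early genes, some of which also use SRF, 4 were higher and 0 lower on SDS day 0, with 19.8% and 20.2% of all genes, FOSB at 2.86 ± 0.43 and FOS at 2.45 ± 0.53. On SDS day 2, 1 of them was higher and 2 lower, with 8.81% and 7% of all genes. On KCl day 0, 4 were higher and 3 lower, with 23.6% and 26.6%, and on DXR day 0, 5 were higher and 0 lower, with 13% and 14.9%. Of the 11 fibroblast markers, 6 were lower and 1 higher on SDS day 0, with 20.2% and 19.8% of all genes. COL3A1 was at -2.96 ± 0.33 and THY1 at -1.47 ± 0.11 on that day. On SDS day 2, 8 of the markers were lower and 1 higher, with 7% and 8.81% of all genes. The part of these markers in the results above was not tested.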

How the data were processed

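Bulk mRNA-seq of 52 libraries in 26 groups of WI-38 cells was deposited as 25 distinct tables, each comparing 2 treated libraries with the same 2 untreated ones. Per the labels, the authors' processing notes name Trim Galore, HISAT2, HTSeq, featureCounts and DESeq2 and the builds GRCh38 and hg38. The step each counter served, versions and annotation are not given in the sources used here. The deposited signal is the authors' mean normalised count over the 4 libraries of a table. The deposited log2 fold changes and their standard errors are the authors' fit. The deposited score (a Wald statistic) and the deposited p-values of the authors were not used.

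The tables hold the authors' own comparisons and no column per library, so the log2 fold change and its SE were the measurement analysed. A two-sided Wald test (log2 difference over SE, normal p) was adjusted by Benjamini-Hochberg over the 14876 genes whose mean over the groups reached 10 normalised reads. Calls required an adjusted p under 0.05. Differences between inducers, between days and from RS used the root of the summed squared SEs. They count the untreated error from both tables, which widens the SE of a difference. This does not make every count a low one, since limma voom gave fewer calls in some of these comparisons and more in others.

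Reads per library were recovered as the whole numbers that give the deposited means. Of 371850 gene and table pairs, 364660 were settled by the mean, 7020 with the fold change and 164 to within 3%, and 6 were not resolved. The median absolute difference between log2 fold changes predicted from these reads and those deposited was 1.18e-09. Reads were divided by library size factors. The 2 libraries of every group differed by more than sampling noise. limma 3.58.1 (voom, R 4.3.3) on these reads, with the spread pooled over all groups, was an alternative added after seeing the data and gave the fits without 1 library. Scripts ran in Python 3.11.15 and were tested on simulated data. The simulated calls used 1 spread for all genes and groups, which the Wald test was given. They do not show how the calls behave with the unequal spread of these groups.

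The 41 genes and the other gene lists were chosen with earlier results of these data known. Values in full were given, by rule, for up to 4 called genes per direction with the largest change on SDS day 0, SDS day 16, KCl day 0, DXR day 0 and in RS, for ACTA2, ACTB, SRF, MRTFA and MRTFB, for up to 3 genes per role with the largest difference between SDS and another inducer, and for up to 3 genes of each other list. TAGLN on SDS day 1, CNN1, SMTN, MYH10, PFN1, ACTG2, PDLIM5 and the genes behind small counts were also named after their values were seen. Alternatives were other filters on low values, a log2 difference of at least 1, centring on the median of all genes, scaling by library totals, halved squared SEs, and limma voom with all libraries or without each. The result of 1 further gene list is not reported here.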

Additional observations from a re-analysis of the deposited data

Results flagged for a closer look

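The inducers differed in these genes by a test of the difference itself, the pairs of inducer and day being given here where at least 10 of the 38 genes differed in 1 direction, a number chosen after the data were seen. On day 0, 23 genes were lower and 0 higher after SDS than after KCl (18.1% and 20.5% of all genes). Against DXR on that day, 27 genes were lower and 1 higher after SDS than after DXR (13.6% and 15% of all genes), and 16 genes were lower and 6 higher after KCl than after DXR (18.8% and 18.3% of all genes). On day 1, 14 genes were lower and 1 higher after SDS than after KCl (2.92% and 1.51% of all genes). Against DXR on that day, 10 genes were higher and 8 lower after SDS than after DXR (6.89% and 5.46% of all genes), and 18 genes were higher and 1 lower after KCl than after DXR (4.67% and 3.09% of all genes). On day 2, 16 genes were higher and 0 lower after SDS than after KCl (1.04% and 1.35% of all genes). By limma voom the higher genes numbered 11 with all libraries and 0 to 4 without 1 library. Against DXR on day 2, 19 genes were higher and 0 lower after SDS than after DXR (4.71% and 2.61% of all genes), and by limma voom 18 were higher with all libraries and 9 to 15 without 1. On day 16, 11 genes were higher and 0 lower after KCl than after DXR (4.43% and 1.96% of all genes). With 2 libraries in a group, no single library could be judged against its group.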

How the results depend on the processing

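No paired analysis was possible because the recovered libraries carry no replicate number. Of 2142 values of single called genes under an alternative, 1812 kept their direction and call, 330 kept the direction but lost the call, and 0 reversed. That tally covered genes called against untreated cells on SDS days 0, 1, 2 and 16, KCl days 0 and 8, DXR days 0, 1 and 16 and in RS. It held no comparison between treated groups and left out the requirement of a log2 difference of at least 1. Centring shifted values only by the small median of all genes, such as -0.036 on KCl day 0, so it could hardly reverse a called gene. The other filters on low values did not alter the log2 value, so no reversal was possible under them. Requiring a log2 difference of at least 1 lowered most counts. Against untreated cells it left 14 lower on SDS day 0, 6 on SDS day 1, 1 on SDS day 16, 7 on KCl day 0, 2 on KCl day 8, 2 on DXR day 0, 3 on DXR day 1, 3 on DXR day 16 and 0 in RS, and 0 higher on SDS day 2. Between groups it left 11 lower after SDS than KCl and 13 lower than DXR on day 0, 0 and 2 higher on day 2, 1 lower than KCl on day 16, and 21 and 8 higher on SDS days 2 and 16 than on SDS day 0. Halved squared SEs gave 7 genes lower after SDS than KCl on day 16 and 2 lower than in RS. limma voom gave 13 higher on SDS day 2, 5 higher after SDS than DXR on day 16 and 2 lower on SDS day 16 than in RS. The cause of these changes, beyond fewer genes of that size or smaller errors, was not tested.

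By limma voom without 1 library, the lower genes numbered 14 to 23 in RS, 33 to 35 on SDS day 0, 13 to 14 on SDS day 1, 12 to 22 on SDS day 16, 20 to 23 on KCl day 0, 11 to 13 on KCl day 8, 13 to 16 on DXR day 0, 12 to 15 on DXR day 1 and 19 to 30 on DXR day 16. On KCl day 8 they were 12 without the larger and 11 without the smaller KCl library, 13 without the larger and 12 without the smaller untreated library, against 17 by the same test with all libraries. The higher genes on SDS day 2 numbered 1 to 6. Between groups the ranges were 21 to 25 lower after SDS than KCl and 25 to 32 than DXR on day 0, 0 to 4 higher than KCl and 9 to 15 than DXR on day 2, 3 to 7 lower than KCl and 0 to 18 higher than DXR on day 16, 35 to 36 and 22 to 29 higher on SDS days 2 and 16 than on day 0, and 2 to 6 lower on SDS day 16 than in RS. A lone library was assumed to vary like the other groups. With 2 libraries in a group and untreated libraries of 18949662 and 15241220 recovered reads, small differences were not detectable.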
